A study of Homo sapiens with 8 samples.

Results

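The 9 genes described here encode the core of the spindle assembly checkpoint: the kinases TTK and BUB1, the BUB1B and BUB3 proteins that work with them, the MAD1L1 and MAD2L1 pair, the checkpoint's target CDC20, and TRIP13 and MAD2L1BP, which take the inhibitory complex apart. They were chosen by name for this known function, and each of the 9 was found as 1 row among the 38148 genes of the expression table. All 9 passed the filter that left 14219 genes for testing, a mean deposited log2 value of at least 4.58. That is the value of 1 RPM (reads on the gene, scaled to the library's reads on genes) in the largest library.

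The values are mRNA abundances in HT29, an established human colorectal cancer cell line. HT29 cells were untreated or exposed to selumetinib, an inhibitor of the kinase MEK that lies upstream of ERK, at 1 μM for 24 h. All cells were then fixed with glyoxal, stained with an antibody against cyclin B1 (CCNB1), a protein that builds up towards mitosis, and flow sorted into CCNB1-negative and CCNB1-positive cells before poly(A) mRNA-seq. There were 4 groups with 2 libraries each: untreated CCNB1-negative, untreated CCNB1-positive, selumetinib CCNB1-negative and selumetinib CCNB1-positive. The labels do not say whether the 2 libraries of a group came from separate cultures, so the p-values measure the spread between these libraries, which may be technical. The labels also conflict. For all 8 libraries the sample title disagrees with the sample description about both treatment and fraction, and the descriptions, which match the column names of the table, were followed. The treatment given with the growth medium sides with the titles, and the medium named there is RPMI-1640, where the methods name McCoy's medium for HT29. If the titles were right, each response given for CCNB1-negative cells would, with its sign turned round, belong to CCNB1-positive cells, and vice versa. The differences between fractions would likewise swap treatments and change sign, and the difference between the responses would not change. CCNB1 mRNA, which played no part in assigning the groups, was read beside this conflict. Its mean log2 value was 11.83 in untreated CCNB1-negative, 13.92 in untreated CCNB1-positive, 7.57 in selumetinib CCNB1-negative and 12.65 in selumetinib CCNB1-positive libraries (SD 0.16 to 0.49). With the titles' groups it would be lower in the CCNB1-positive than in the CCNB1-negative fraction of both treatments, and the untreated CCNB1-positive libraries would hold the lowest summed levels of S phase and of G2 and mitosis markers.

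As background, the checkpoint delays anaphase until every chromosome is attached to the spindle. TTK is recruited to unattached kinetochores and phosphorylates the scaffold KNL1, which then binds BUB3 with BUB1 or BUB1B. BUB1 brings in MAD1L1, whose tight complex with MAD2L1 converts further MAD2L1 into the closed form that captures CDC20. Closed MAD2L1, CDC20, BUB1B and BUB3 form the mitotic checkpoint complex, which blocks the anaphase-promoting complex (APC/C), the ubiquitin ligase that sends cyclin B1 and securin for destruction. MAD2L1BP binds closed MAD2L1 and presents it to the ATPase TRIP13, which opens it again. Many of these mRNAs are made in late S phase, G2 and mitosis. The cell cycle homology region (CHR), a short promoter element bound by the DREAM and MuvB complexes, is a known feature of genes of this kind, often with a CCAAT box bound by NF-Y or with an E2F element.

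Promoter sequences were taken from the RefSeq table of build GRCh38.p14, where 7 of the 9 genes matched by symbol, while BUB3 and TTK did not match. A window from 120 bases before the annotated transcript start to the first 30 transcribed bases was searched on both strands for the CHR (TTTGAA or TTCGAA), the CCAAT box (CCAAT) and E2F elements (TTNNCGC, with each N either C or G). No matches overlapped each other. A CHR was found in 5 of the 7 genes, BUB1, BUB1B, MAD2L1, CDC20 and TRIP13, and in 7.63% of the 35116 promoters of the table. The CHR began 65 bases before the start in CDC20 and 23 bases before it in BUB1B, and at transcribed base 2 in BUB1, 4 in TRIP13 and 25 in MAD2L1. CCAAT was found in BUB1 and CDC20, with 2 matches in each, and in 22.4% of all promoters. E2F elements were found in MAD2L1 and MAD2L1BP, and in 7.31% of all promoters. MAD1L1, whose RefSeq start lies 298 bases from the end of the gene in the expression table, had no match to any of these letters. MAD2L1BP has 2 entries in the table, and only the one whose start lies 6300 bases from that of the expression table has a CHR match, on the reverse strand 117 bases before the start. A match describes letters in this window and does not show that a factor binds there. The 6 windows below are shown because the first 5 belong to genes that fell under selumetinib in both fractions, while MAD1L1 did not pass the test in either. MAD2L1BP, which was called lower in CCNB1-negative cells only, is not shown. BUB3 and TTK also fell in both fractions but had no sequence to show. No link between a motif and a response was tested. The capitals mark the matches, a CHR in each of the first 5 along with the CCAAT boxes of BUB1 and CDC20 and the E2F element of MAD2L1.

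BUB1 (chr2:110678034-110678183, minus strand): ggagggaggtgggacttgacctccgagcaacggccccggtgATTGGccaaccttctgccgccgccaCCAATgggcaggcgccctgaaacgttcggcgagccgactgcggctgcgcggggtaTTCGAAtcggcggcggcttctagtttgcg
CDC20 (chr1:43358861-43359010, plus strand): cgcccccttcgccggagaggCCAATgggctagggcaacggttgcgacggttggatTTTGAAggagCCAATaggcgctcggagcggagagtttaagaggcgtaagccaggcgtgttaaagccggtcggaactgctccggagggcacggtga
BUB1B (chr15:40160949-40161098, plus strand): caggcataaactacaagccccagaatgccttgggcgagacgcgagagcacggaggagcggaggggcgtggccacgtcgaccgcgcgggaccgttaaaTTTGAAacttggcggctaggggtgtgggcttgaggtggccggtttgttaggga
TRIP13 (chr5:892764-892913, plus strand): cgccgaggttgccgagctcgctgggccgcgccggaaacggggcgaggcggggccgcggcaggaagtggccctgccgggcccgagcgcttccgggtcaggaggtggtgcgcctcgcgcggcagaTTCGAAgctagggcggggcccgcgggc
MAD2L1 (chr4:120066819-120066968, minus strand): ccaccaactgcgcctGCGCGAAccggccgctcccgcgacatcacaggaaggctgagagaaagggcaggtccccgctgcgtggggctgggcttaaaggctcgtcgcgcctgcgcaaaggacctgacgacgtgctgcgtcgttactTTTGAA
MAD1L1 (chr7:2232916-2233065, minus strand): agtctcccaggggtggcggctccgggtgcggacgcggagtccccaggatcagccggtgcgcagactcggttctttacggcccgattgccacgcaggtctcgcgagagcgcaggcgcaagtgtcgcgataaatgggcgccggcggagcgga

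The libraries held between 12696860 and 23916160 reads on genes. Every library was counted as a sample. Replicates differed by more than sampling noise, the chi-square per gene being 15.6 to 30.2 in the 4 groups. Such a spread does not show that they came from separate cultures. Mitochondrial genes took 4.44% to 7.80% of the reads in untreated libraries and 11.9% to 14.8% in selumetinib libraries, and MALAT1, a nuclear non-coding RNA, took 0.303% to 0.386% and 2.01% to 4.42%. These shares move with every response given here, and their part in the responses was not tested. All 7 colorectal epithelial markers were detected. Their summed level was 9930 to 11016 RPM in untreated and 4578 to 6514 RPM in selumetinib CCNB1-negative libraries, and 9982 to 10068 and 6143 to 8247 RPM in the CCNB1-positive ones. In the CCNB1-negative response 3 of them (EPCAM, KRT8 and KRT18) were called lower and 2 (CDX2 and VIL1) higher, with EPCAM at -1.34 and CDX2 at 1.06 as the ends, and in the CCNB1-positive response 1 was lower (EPCAM, -0.83) and 2 were higher (CDX2 at 1.14 and VIL1). The markers of blood, endothelial and stromal cells summed to 1.20 to 2.09 RPM in untreated and 2.76 to 5.96 RPM in selumetinib libraries, with PTPRC, COL3A1 and DCN at 0 in at least 1 library. Of these 5 markers only COL1A1 passed the filter, and it was called higher in both responses (1.81 in CCNB1-negative, 2.19 in CCNB1-positive libraries). The part of these shifts in the responses was not tested. Summed over 5 markers of G2 and mitosis, the level was 622 to 684 RPM in untreated CCNB1-negative, 2710 to 3102 RPM in untreated CCNB1-positive, 73.0 to 94.9 RPM in selumetinib CCNB1-negative and 2240 to 2408 RPM in selumetinib CCNB1-positive libraries. The corresponding sums of 5 S phase markers were 1046 to 1115, 556 to 599, 76.3 to 85.0 and 273 to 305 RPM. The S phase markers ran from CDC6 (-4.46) to RRM2 (-3.40) in the CCNB1-negative response and from PCNA (-1.74) to CCNE2 (0.08, not called) in the CCNB1-positive one, and TOP2A was the highest of the G2 and mitosis markers in both, at -2.56 and 0.12, the latter not called. CCNB1 mRNA, which checks the sort, was higher in CCNB1-positive than in CCNB1-negative cells by a log2 difference of 2.09 in untreated and 5.08 in selumetinib-treated cells. It was lower after selumetinib by log2 differences of -4.27 (CCNB1-negative cells) and -1.27 (CCNB1-positive cells). In bulk libraries fewer cells that express a gene and less RNA per cell cannot be told apart, which applies to each difference below.

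Selumetinib lowered 8 of the 9 checkpoint mRNAs in CCNB1-negative cells and 7 of them in CCNB1-positive cells, and the falls were larger in the CCNB1-negative fraction for 7 genes. Genes were called at an adjusted p under 0.05 in limma, a linear model with moderated variances, with all 8 libraries in the fit. Over all genes tested, 35.8% were called lower and 38.2% higher in CCNB1-negative cells, and 27.3% lower and 38.0% higher in CCNB1-positive cells. The 9 genes had a median log2 difference of -3.37 in CCNB1-negative cells, against 0.05 for all genes tested, and of -0.72 in CCNB1-positive cells, against 0.17. In CCNB1-negative cells 7 genes fell past 4-fold, and in CCNB1-positive cells none did. The comparison of the responses, an interaction term, was positive for 7 genes, where 4.99% of all genes tested were positive and 0.345% negative. Between the fractions, 5 genes were higher in CCNB1-positive than in CCNB1-negative untreated cells, where 1.36% of all genes were higher and 1.51% lower. After selumetinib 8 were higher, where 13.8% of all genes were higher and 7.87% lower. A response and a difference between fractions that have a group in common share its libraries, so their values are not independent.

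**Figure D1:**
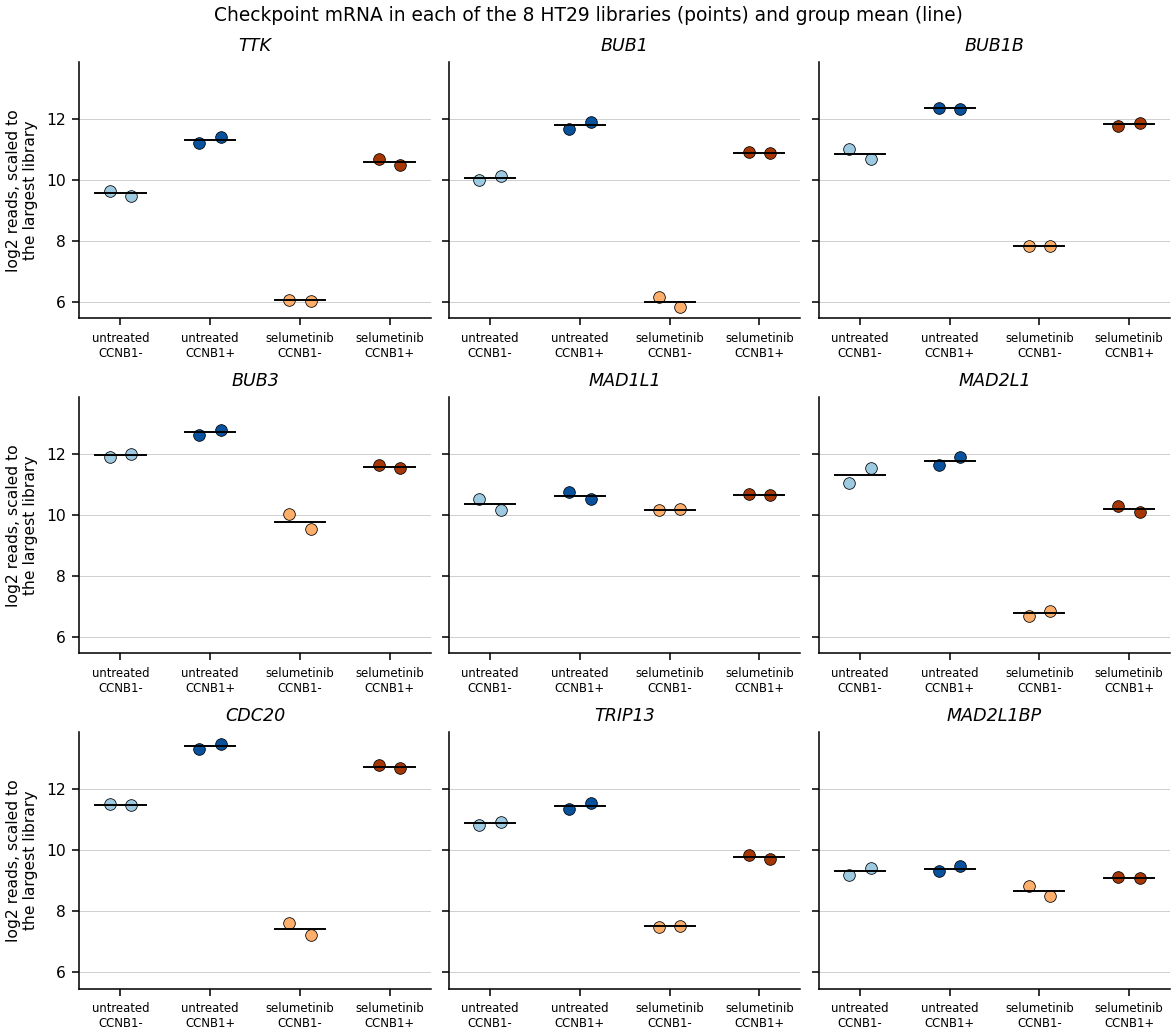
Deposited log2 value (log2 of reads scaled to the largest library, vertical axis) of the 9 checkpoint mRNAs in each of the 8 HT29 libraries (points) with the mean of each group of 2 (lines). The selumetinib CCNB1-negative libraries lie lowest for TTK, BUB1, BUB1B, BUB3, MAD2L1, CDC20 and TRIP13, and the 4 groups lie close together for MAD1L1 and MAD2L1BP.

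TTK (ENSG00000112742, chromosome 6, 80003887 to 80042527 on GRCh38), the kinase that starts checkpoint signalling, was lower after selumetinib in both fractions and higher in the CCNB1-positive fraction in both treatments. Its deposited log2 values were 9.63 and 9.48 in untreated CCNB1-negative, 11.20 and 11.40 in untreated CCNB1-positive, 6.08 and 6.05 in selumetinib CCNB1-negative and 10.68 and 10.49 in selumetinib CCNB1-positive libraries. The 4 groups did not overlap, and the selumetinib CCNB1-negative libraries, with 43 and 39 reads, were the lowest. Selumetinib changed TTK by -3.49 ± 0.16 (log2 difference ± SE, n = 2 per group, adjusted p = 1.34e-09) in CCNB1-negative cells, an 11.3-fold fall, and it fell 1.64-fold in the CCNB1-positive fraction (-0.72 ± 0.16, adjusted p = 0.00128). CCNB1-positive cells held 3.36-fold more TTK mRNA than CCNB1-negative cells without the drug (log2 difference 1.75 ± 0.16, adjusted p = 1.5e-05) and 23.0-fold more with it (4.52 ± 0.16, adjusted p = 1.8e-10).

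BUB1 (ENSG00000169679, chromosome 2, 110637528 to 110678063), the kinase that phosphorylates histone H2A at centromeres and recruits MAD1L1, followed a course close to that of TTK. The log2 values were 10.002 and 10.12 in untreated CCNB1-negative, 11.66 and 11.90 in untreated CCNB1-positive, 6.17 and 5.85 in selumetinib CCNB1-negative and 10.90 and 10.88 in selumetinib CCNB1-positive libraries. Again no groups overlapped, and only 46 and 34 reads were behind the selumetinib CCNB1-negative values. The response was -4.05 ± 0.16 in CCNB1-negative cells (adjusted p = 7.18e-10), a 16.6-fold fall, and -0.89 ± 0.16 in CCNB1-positive cells (adjusted p = 0.000316), a 1.85-fold fall. Between fractions BUB1 was higher in CCNB1-positive cells by 1.72 ± 0.16 untreated (adjusted p = 2.22e-05) and by 4.88 ± 0.16 after selumetinib (adjusted p = 1.8e-10), the latter a 29.4-fold difference.

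BUB1B (ENSG00000156970, chromosome 15, 40161023 to 40221136) encodes BubR1, the pseudokinase that inhibits the APC/C as part of the mitotic checkpoint complex. Its log2 values were 10.99 and 10.69 in untreated CCNB1-negative, 12.35 and 12.31 in untreated CCNB1-positive, 7.82 and 7.84 in selumetinib CCNB1-negative and 11.77 and 11.85 in selumetinib CCNB1-positive libraries, with no overlap between groups. The fall was 8.07-fold in CCNB1-negative cells (log2 difference -3.01 ± 0.15, adjusted p = 2.06e-09) and 1.44-fold in CCNB1-positive cells (-0.52 ± 0.15, adjusted p = 0.00612). The latter call was lost with quantile normalization, at -0.22 and an adjusted p of 0.207. The fraction difference was 1.49 ± 0.15 untreated (adjusted p = 2.74e-05) and 3.98 ± 0.15 with selumetinib (adjusted p = 2.3e-10). BUB1B shares exons on the same strand with PAK6, a kinase gene, and with the readthrough locus BUB1B-PAK6, so reads from these loci could be split among them and its values are uncertain to that extent. The 2 loci were measured at -2.27 and -2.67 in the CCNB1-negative response and at -0.37 and -0.34 in the CCNB1-positive response.

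BUB3 (ENSG00000154473, chromosome 10, 123154402 to 123170467), the adaptor that ties BUB1 and BUB1B to the kinetochore, had a smaller value than BUB1 and BUB1B for the fall in CCNB1-negative cells and a larger one in CCNB1-positive cells, differences between genes that were not tested. The log2 values were 11.90 and 11.99 in untreated CCNB1-negative, 12.62 and 12.79 in untreated CCNB1-positive, 10.03 and 9.54 in selumetinib CCNB1-negative and 11.62 and 11.55 in selumetinib CCNB1-positive libraries. Selumetinib CCNB1-positive libraries lay below untreated CCNB1-negative ones, which was also the case for MAD2L1 and TRIP13, while for TTK, BUB1, BUB1B and CDC20 they lay above. The responses of BUB3 were -2.17 ± 0.17 in CCNB1-negative cells (adjusted p = 7.88e-08) and -1.12 ± 0.17 in CCNB1-positive cells (adjusted p = 5.56e-05), that is 4.49-fold and 2.18-fold falls. It was higher in CCNB1-positive cells by 0.76 ± 0.17 untreated (adjusted p = 0.0224) and by 1.80 ± 0.17 with selumetinib (adjusted p = 2.7e-06). The untreated difference was no longer called when untreated CCNB1-negative replicate 1 (adjusted p = 0.132), untreated CCNB1-negative replicate 2 (0.0849) or untreated CCNB1-positive replicate 2 (0.217) was left out, nor with quantile normalization (0.0713) or without the filter on low values (0.0834).

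MAD1L1 (ENSG00000002822, chromosome 7, 1815793 to 2233243), the kinetochore-bound template on which MAD2L1 is converted, did not pass the test for a response in either fraction. Its log2 values were 10.51 and 10.17 in untreated CCNB1-negative, 10.74 and 10.51 in untreated CCNB1-positive, 10.17 and 10.18 in selumetinib CCNB1-negative and 10.67 and 10.64 in selumetinib CCNB1-positive libraries. Treated and untreated libraries overlapped in both fractions. The response was -0.17 in CCNB1-negative cells, with a 95% confidence interval from -0.50 to 0.16 (adjusted p = 0.334), and 0.03 in CCNB1-positive cells, from -0.30 to 0.37 (adjusted p = 0.859), a value that changed sign to -0.14 with median-ratio scaling. These intervals leave room for changes, so an unchanged level is not shown. MAD1L1 was higher in CCNB1-positive than in CCNB1-negative cells after selumetinib by 0.48 ± 0.16 (adjusted p = 0.0406), without overlap. That call was lost when any 1 of the 4 selumetinib libraries (adjusted p = 0.0663 to 0.176) or of the 2 untreated CCNB1-positive libraries (0.0517 to 0.0518) was left out, and under 6 other alternatives (0.0507 to 0.0774). MAD1L1 shares exons on the same strand with the locus AC069288.1, which had up to 3585 reads per library and responses of -0.998 and -0.473, so its values too are uncertain.

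MAD2L1 (ENSG00000164109, chromosome 4, 120055623 to 120066858), the protein that closes around CDC20, fell further in CCNB1-negative cells than any of the other 8 genes. The log2 values were 11.04 and 11.55 in untreated CCNB1-negative, 11.62 and 11.90 in untreated CCNB1-positive, 6.69 and 6.87 in selumetinib CCNB1-negative and 10.28 and 10.11 in selumetinib CCNB1-positive libraries. The drug-treated CCNB1-negative libraries had 66 and 69 reads for MAD2L1, against 1941 and 2381 in the untreated ones. The response was -4.51 ± 0.18 there (adjusted p = 7.18e-10), a 22.8-fold fall, and -1.57 ± 0.18 in CCNB1-positive cells (adjusted p = 7.6e-06), a 2.97-fold fall. Between untreated fractions MAD2L1 did not pass the test (0.47 ± 0.18, adjusted p = 0.251), although the libraries did not overlap and 1 of the alternatives made the call. With selumetinib it was 10.6-fold higher in CCNB1-positive cells (3.41 ± 0.18, adjusted p = 6.4e-09).

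CDC20 (ENSG00000117399, chromosome 1, 43358981 to 43363203), both the activator of the APC/C in mitosis and the protein the checkpoint captures, showed the widest range between groups of the 9 genes. The log2 values were 11.50 and 11.46 in untreated CCNB1-negative, 13.32 and 13.47 in untreated CCNB1-positive, 7.62 and 7.20 in selumetinib CCNB1-negative and 12.78 and 12.68 in selumetinib CCNB1-positive libraries. Read counts ran from 87 to 10333, with no overlap between groups. Selumetinib lowered CDC20 by 16.8-fold in CCNB1-negative cells (-4.07 ± 0.16, adjusted p = 7.18e-10) and by 1.58-fold in CCNB1-positive cells (-0.66 ± 0.16, adjusted p = 0.00227). With quantile normalization the latter was -0.17, with an adjusted p of 0.369. CCNB1-positive cells had 3.76-fold more CDC20 mRNA untreated (1.91 ± 0.16, adjusted p = 7.77e-06) and 40.0-fold more with selumetinib (5.32 ± 0.16, adjusted p = 1.79e-10).

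TRIP13 (ENSG00000071539, chromosome 5, 892884 to 919357), the ATPase that reopens MAD2L1, had the largest fall of the 9 genes in CCNB1-positive cells. Its log2 values were 10.83 and 10.93 in untreated CCNB1-negative, 11.35 and 11.53 in untreated CCNB1-positive, 7.48 and 7.53 in selumetinib CCNB1-negative and 9.83 and 9.70 in selumetinib CCNB1-positive libraries. All 4 selumetinib libraries lay below all 4 untreated ones. The response was -3.37 ± 0.15 in CCNB1-negative cells (adjusted p = 9.33e-10), a 10.4-fold fall, and -1.67 ± 0.15 in CCNB1-positive cells (adjusted p = 8.43e-07), a 3.19-fold fall. Untreated fractions differed by 0.56 ± 0.15, just short of the threshold at an adjusted p of 0.0587. It passed under 6 alternatives, among them leaving out selumetinib CCNB1-negative replicate 1 (0.0411) or replicate 2 (0.0416), median-ratio scaling (0.041) and limma-voom on read counts (0.0461). After selumetinib the difference was 2.26 ± 0.15 (adjusted p = 5.28e-08).

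MAD2L1BP (ENSG00000124688, chromosome 6, 43629540 to 43640952), the adaptor that carries MAD2L1 to TRIP13, was the other gene with small differences. The log2 values were 9.20 and 9.43 in untreated CCNB1-negative, 9.30 and 9.47 in untreated CCNB1-positive, 8.83 and 8.49 in selumetinib CCNB1-negative and 9.11 and 9.08 in selumetinib CCNB1-positive libraries. Only the untreated fractions overlapped. In CCNB1-negative cells it fell 1.57-fold (-0.65 ± 0.17, adjusted p = 0.00346). In CCNB1-positive cells the response was -0.29, with a 95% confidence interval from -0.66 to 0.08 (adjusted p = 0.151), and it was called lower with quantile normalization (-0.44, adjusted p = 0.0411) and median-ratio scaling (-0.46, adjusted p = 0.0299). The fractions differed by 0.07 ± 0.17 untreated (adjusted p = 0.927) and by 0.44 ± 0.17 with selumetinib (adjusted p = 0.0835), and the latter was called under 2 alternatives, 1 of them without selumetinib CCNB1-negative replicate 1 (0.61, adjusted p = 0.0278).

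**Figure D2:**
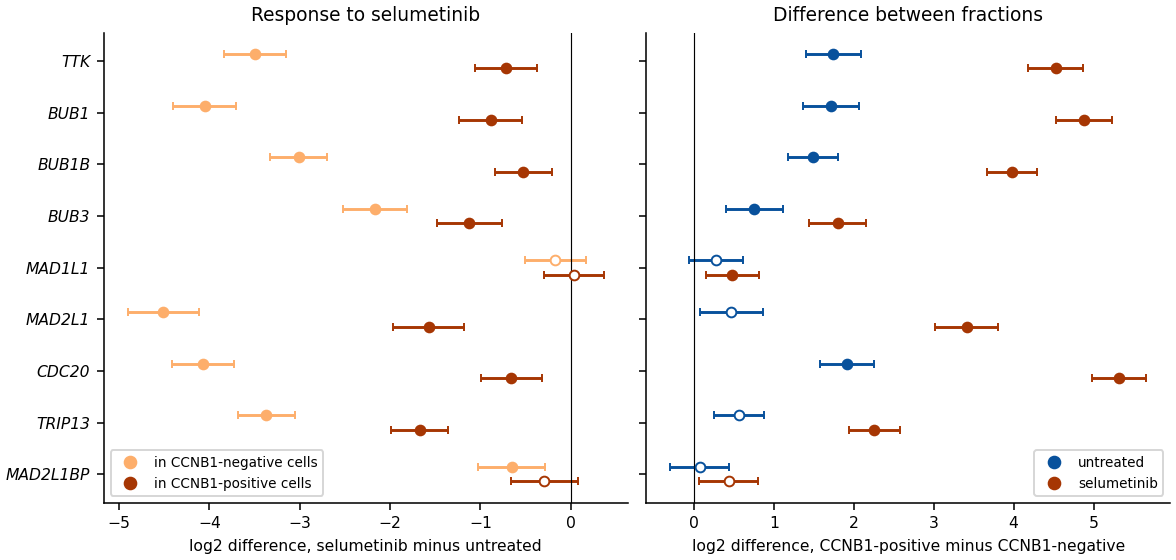
Log2 differences (horizontal axis) of the 9 checkpoint mRNAs with 95% confidence intervals from limma, for the response to selumetinib in each fraction (left) and for the difference between fractions in each treatment (right). Filled points passed an adjusted p of 0.05 and open points did not, and the points for the CCNB1-negative response lie further from 0 than those for the CCNB1-positive response for all 9 genes.

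The test of the difference between the responses separated the genes. The response was less negative in CCNB1-positive cells by 3.41 ± 0.22 for CDC20 (adjusted p = 3.56e-06), 3.16 ± 0.23 for BUB1 (4.12e-06), 2.94 ± 0.26 for MAD2L1 (7.35e-06), 2.78 ± 0.22 for TTK (4.51e-06), 2.49 ± 0.21 for BUB1B (4.87e-06) and 1.70 ± 0.21 for TRIP13 (0.000103). For BUB3 the difference was 1.04 ± 0.23 (adjusted p = 0.0168), and it was not called without untreated CCNB1-negative replicate 2 (0.0633), untreated CCNB1-positive replicate 1 (0.0819) or selumetinib CCNB1-positive replicate 1 (0.0659), nor without the filter (0.062). MAD2L1BP, at 0.36 with an interval from -0.16 to 0.89 (adjusted p = 0.426), and MAD1L1, at 0.20 with an interval from -0.27 to 0.68 (adjusted p = 0.637), did not pass. The median of this difference over the 9 genes was 2.49, against 0.11 over all genes tested. The G2 and mitosis marker sums and the CCNB1 mRNA level given above move in the same way between the groups, and their part in these differences was not tested.

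Levels per length were compared as RPKM, reads scaled to exon length and to library size, with exon lengths from GENCODE release 44. Each length counts all annotated exons of the gene, so the order between genes depends on that choice. The release behind the expression table is not known, and BUB1B and MAD1L1 share exons with other loci. CDC20 mRNA was the most abundant of the 9 in 3 groups, at 59.3 ± 1.58 RPKM (SD, n = 2) in untreated CCNB1-negative, 222 ± 15.0 in untreated CCNB1-positive and 151 ± 5.87 in selumetinib CCNB1-positive cells. In selumetinib CCNB1-negative cells it was 4th, at 3.92 ± 0.73 RPKM, behind MAD2L1BP at 10.1 ± 1.52, MAD1L1 at 7.64 ± 0.15 and BUB3 at 5.02 ± 1.12 RPKM, although its libraries overlapped those of BUB3. MAD1L1 and MAD2L1BP, which stood 7th and 6th in untreated CCNB1-negative cells and 9th and 8th in untreated CCNB1-positive cells, thus led the order in selumetinib CCNB1-negative cells. At the other end of that group were MAD2L1 at 0.920 ± 0.092, TTK at 0.671 ± 0.000396 and BUB1 at 0.473 ± 0.069 RPKM, none of which overlapped its neighbour.

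In untreated CCNB1-negative cells TRIP13 stood second at 23.7 ± 0.98 RPKM. BUB3 at 20.2, MAD2L1 at 19.3, BUB1B at 17.3 and MAD2L1BP at 14.4 RPKM each overlapped the next in that order except MAD2L1BP. MAD1L1 at 7.87, BUB1 at 7.09 and TTK at 6.88 RPKM could not be ranked, since neighbouring libraries overlapped. In untreated CCNB1-positive cells BUB1B rose to second place, at 48.1 ± 1.22 RPKM. Of the other neighbours there, TRIP13 (34.9 RPKM) overlapped BUB3 (34.0), and MAD2L1 (26.3) overlapped BUB1 (23.3), which overlapped TTK (23.0). In selumetinib CCNB1-positive cells BUB1B was again second at 36.0 ± 1.65 RPKM, and the other 7 genes lay within the narrow span from 16.8 ± 0.44 RPKM for BUB3 to 9.50 ± 0.72 RPKM for MAD2L1, without overlap between neighbours.

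**Figure D3:**
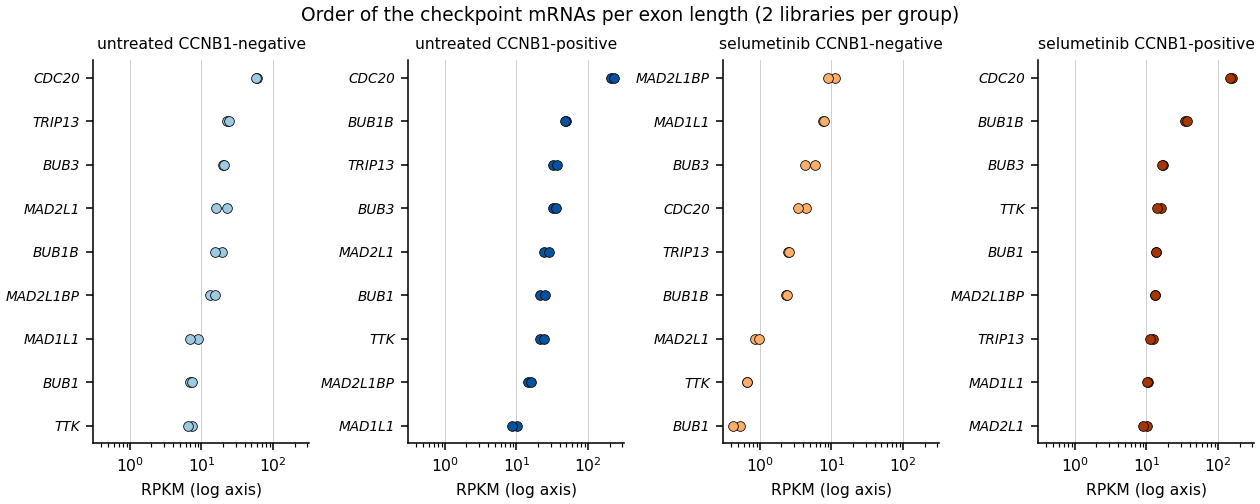
Level per exon length (RPKM, log axis) of the 9 checkpoint mRNAs in the 2 libraries of each group (points), ordered by the mean in that group. CDC20 leads in 3 groups, and MAD2L1BP and MAD1L1 lead in selumetinib CCNB1-negative cells, where BUB1, TTK and MAD2L1 are below 1 RPKM.

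Ratios of partners within a library do not depend on how libraries are scaled. They are ratios of reads, not scaled to exon length, so where they cross 0 depends on the lengths of the 2 genes. The log2 ratio of MAD2L1 to MAD1L1 reads was 0.52 and 1.38 in untreated CCNB1-negative, 0.88 and 1.39 in untreated CCNB1-positive, -3.47 and -3.31 in selumetinib CCNB1-negative and -0.39 and -0.53 in selumetinib CCNB1-positive libraries. MAD2L1 reads thus outnumbered MAD1L1 reads in the 4 untreated libraries and were fewer in the 4 selumetinib libraries. The ratio of TRIP13 to its adaptor MAD2L1BP went from 1.629 and 1.503 to -1.34 and -0.96 with selumetinib in CCNB1-negative cells. In CCNB1-positive cells it went from 2.05 and 2.06 to 0.72 and 0.63.

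The mRNA of the target CDC20 stood highest against that of its captor MAD2L1 in CCNB1-positive cells, and their proteins were not measured. The log2 ratio of CDC20 to MAD2L1 reads was 0.46 and -0.09 in untreated CCNB1-negative, 1.69 and 1.57 in untreated CCNB1-positive, 0.92 and 0.33 in selumetinib CCNB1-negative and 2.50 and 2.58 in selumetinib CCNB1-positive libraries. The last group did not overlap any other. BUB1B reads were fewer than those of its adaptor BUB3 in 6 libraries, with log2 ratios from -2.21 to -0.27, and exceeded them in the selumetinib CCNB1-positive libraries, at 0.15 and 0.30. Per exon length BUB1B exceeded BUB3 in both CCNB1-positive groups, at 48.1 against 34.0 RPKM untreated and 36.0 against 16.8 RPKM with selumetinib. TTK and BUB1 kept within the closest bounds, from -0.64 to 0.20 over the 8 libraries, with the 2 selumetinib CCNB1-negative libraries, at -0.10 and 0.20, above the other 6. These ratios are descriptions of 2 libraries per group and were not tested.

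**Figure D4:**
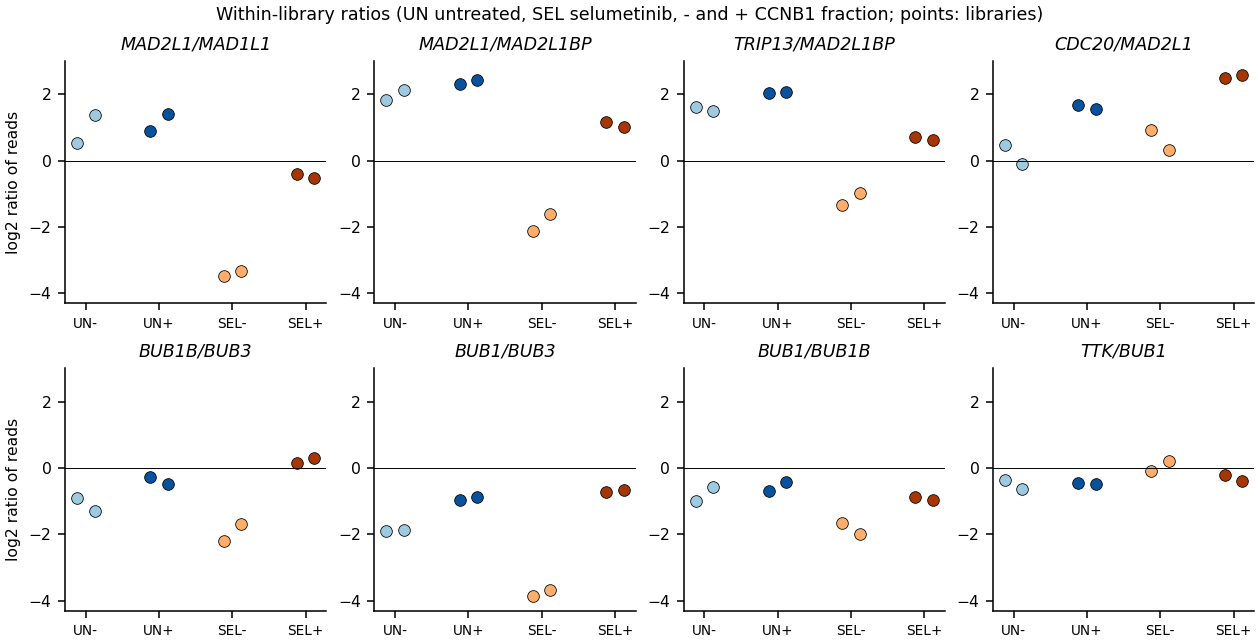
Log2 ratio of reads (vertical axis) of 8 pairs of checkpoint partners in each of the 8 HT29 libraries (points, by group on the horizontal axis). The ratios of MAD2L1 to MAD1L1, MAD2L1 to MAD2L1BP and TRIP13 to MAD2L1BP are lowest in selumetinib CCNB1-negative libraries, and that of CDC20 to MAD2L1 is highest in selumetinib CCNB1-positive libraries.

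Among themselves, the profiles of BUB1 and CDC20 were the closest, with a root mean square difference of 0.19 log2 units over the 8 libraries once each gene was centred on its mean. BUB1 and TTK followed at 0.25, BUB1B and TTK at 0.29 and MAD1L1 and MAD2L1BP at 0.29. MAD1L1 and CDC20 were the farthest apart, at 2.15. The 3 nearest genes outside the 9 were, for BUB1, the spindle assembly factor TPX2 (0.18), ARHGAP11A (0.22) and the mitotic kinase gene CDK1 (0.23). For TTK they were the mitotic kinesin gene KIF18A (0.12), ARHGAP11A (0.14) and CEP55, a cytokinesis gene (0.16). For BUB1B they were the cytokinesis genes RACGAP1 (0.16) and PRC1 (0.17) and the proliferation marker MKI67 (0.18). For CDC20 they were HMMR, which encodes a spindle-associated protein (0.17), the kinase gene NEK2 (0.24) and TPX2 (0.25). TRIP13 had the kinetochore gene CENPH (0.22), the histone variant gene H2AFZ (0.22) and the condensin II gene NCAPD3 (0.24). BUB3 had LBR, a nuclear envelope protein gene (0.13), the cohesin gene RAD21 (0.15) and MZT1, a gene of the microtubule-nucleating complex (0.18). MAD2L1 had no gene as close, with DDIAS at 0.27, CENPW at 0.34 and the helicase gene ERCC6L at 0.36. MAD2L1BP had PDZD11 (0.04), the complex I gene NDUFS8 (0.05) and DENND2D (0.06), and MAD1L1 had PPP2R2D (0.07), ZCCHC8 (0.09) and DENND4B (0.10). Genes that vary little are close to each other on this measure, which rests on 4 groups and shared library depth.

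The machinery on which the checkpoint acts was counted from lists chosen by function, to be read against the 35.8% of all genes tested that fell in CCNB1-negative and the 27.3% that fell in CCNB1-positive cells. All 7 genes of the centromere kinases and chromosomal passenger complex, which corrects faulty attachments, fell in CCNB1-negative cells (median -3.32), from HASPIN (-5.25 ± 0.49, adjusted p = 4.31e-07) to INCENP (-1.99 ± 0.26, adjusted p = 8.61e-06). In CCNB1-positive cells PLK1 (-1.36 ± 0.20, adjusted p = 5.85e-05), BIRC5, AURKB and CDCA8 fell, 4 of the 7 (median -0.53), with 6 called under median-ratio scaling and 2 under quantile normalization, and SGO1 was the highest at 0.16 ± 0.19 (adjusted p = 0.497). Of the 10 genes of the kinetochore scaffold, the KNL1, MIS12 and NDC80 complexes that receive TTK and BUB proteins, 8 fell in CCNB1-negative cells (median -2.35), with ZWINT at -3.58 ± 0.21 (adjusted p = 9.21e-09) as the lowest. NSL1, at 0.32 ± 0.16 (adjusted p = 0.0794), did not pass. In CCNB1-positive cells 2 of the 10 fell, ZWINT (-0.93 ± 0.21, adjusted p = 0.00182) and SPC25 (-0.52 ± 0.21, adjusted p = 0.0436), and KNL1, the platform for BUB3, rose by 0.55 ± 0.19 (adjusted p = 0.0223), while with median-ratio scaling 3 fell and none rose. These counts are no higher than the shares over all genes tested in CCNB1-positive cells, 27.3% lower and 38.0% higher, and say nothing particular of the scaffold. Of the 5 genes for the RZZ complex, Spindly and CENPE, which hold MAD1L1 at kinetochores and capture microtubules, 5 fell in CCNB1-negative cells and 3, ZWILCH, ZW10 and SPDL1, in CCNB1-positive cells, with medians of -2.24 and -0.64 and with SPDL1 (-2.93) and ZW10 (-1.44) as the ends in CCNB1-negative and ZWILCH (-0.94) as the lowest in CCNB1-positive cells. With quantile normalization the latter count was 2. CENPE was at 0.06 ± 0.18 in CCNB1-positive cells (adjusted p = 0.773).

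The APC/C is the ligase that the checkpoint restrains. Of 14 APC/C subunit genes, 8 fell and 2, ANAPC16 and CDC27, rose in CCNB1-negative cells, and 6 fell and 1, ANAPC16, rose in CCNB1-positive cells, with medians of -0.45 and -0.19. Over all genes tested, 35.8% fell and 38.2% rose in CCNB1-negative cells, and 27.3% fell and 38.0% rose in CCNB1-positive cells. The extremes in both fractions were ANAPC13 (-1.33 ± 0.22 and -1.18 ± 0.22, adjusted p = 7.8e-05 and 0.000323) and ANAPC16 (0.54 ± 0.14 and 0.50 ± 0.14, adjusted p = 0.00323 and 0.00653). With median-ratio scaling 7 subunits fell and none rose in CCNB1-positive cells. Only ANAPC11 of the 14 differed in its response between the fractions (0.84 ± 0.19, adjusted p = 0.0196), and it was not called with median-ratio scaling. Over all genes tested, 4.99% had such a positive difference. Of 8 APC/C partners and targets, 7 fell in CCNB1-negative cells (median -3.62) and 5, CCNB1, UBE2S, CCNA2, UBE2C and FBXO5, in CCNB1-positive cells (median -0.91). The lowest in both was CCNB1 itself, the target whose protein was sorted. In CCNB1-positive cells 4 of these 8 genes fell with quantile normalization (median -0.55) and 6 with median-ratio scaling (median -1.08). FZR1, which replaces CDC20 as APC/C activator after mitosis, was at 0.27 ± 0.17 (adjusted p = 0.171) in CCNB1-negative cells, and separase (ESPL1), the protease that cleaves cohesin, was at -0.08 ± 0.25 (adjusted p = 0.791) in CCNB1-positive cells. No list was tested as a set, and the medians over all genes tested were 0.05 and 0.17. CCNB1, CCNA2 and PLK1 are also in the marker sums given above. List genes other than the lowest and the highest of each response were named after their values were seen.

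Between untreated fractions, 4 scaffold, 2 RZZ, Spindly and CENPE, 6 centromere and 7 APC/C partner genes were higher in CCNB1-positive cells, along with the APC/C subunit gene CDC27 (0.88 ± 0.16, adjusted p = 0.00686), and the scaffold gene DSN1 was lower (-0.81 ± 0.14, adjusted p = 0.00431). After selumetinib 7, 5, 7, 8 and 4 genes of these lists were higher and none was lower. The response differed between fractions, always with the higher value in CCNB1-positive cells, for 7 of 10 scaffold, 4 of 5 RZZ, Spindly and CENPE, 7 of 7 centromere, 7 of 8 APC/C partner and 1 of 14 APC/C subunit genes. Over all genes tested, 1.36% were higher and 1.51% lower in untreated CCNB1-positive cells, and 13.8% and 7.87% after selumetinib. The difference between responses was positive for 4.99% and negative for 0.345%. The 1 of 14 subunit genes is near that share and says nothing particular of the subunits. For the 7 checkpoint genes called in CCNB1-positive cells, the responses stayed negative under quantile normalization and median-ratio scaling. With quantile normalization BUB1B (-0.22, adjusted p = 0.207) and CDC20 (-0.17, adjusted p = 0.369) were no longer called, so their direction is less certain. The median over all genes tested moved to -0.07 with quantile normalization and to -0.0024 with median-ratio scaling in CCNB1-positive cells. Relative to the median of all genes with the deposited scaling, the CCNB1-positive responses were -1.84 for TRIP13, -1.74 for MAD2L1, -1.29 for BUB3, -1.05 for BUB1, -0.88 for TTK, -0.83 for CDC20 and -0.69 for BUB1B.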

How the data were processed

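Poly(A) mRNA-seq of 8 sorted HT29 samples was analysed. Per the labels and methods, Trim Galore 0.5.0 was used for trimming and HISAT2 2.1.0 for alignment to GRCh38, and SeqMonk for gene quantification. The authors deposited log2 values normalized to total read count. Here, each column was found to be log2 of reads scaled to the largest library, with genes without a read at log2 of 0.9 plus the library's constant, and whole reads (within 0.05) were recovered for 99.97% to 99.98% of genes with reads. Annotation release and strand handling are not given in the sources used here. 0 columns were set aside. Reads carry no molecular identifiers, so depth bounds counting error only.

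Genes with a mean log2 of at least 4.58 were tested with limma 3.58.1 (trend, R 4.3.3, two-sided) on the deposited log2 values with 1 coefficient per group. The Benjamini-Hochberg adjustment ran over all 14219 genes. The authors used DESeq2. The fit was run on simulated reads with far fewer changed genes than in these data, which checks the code and not the error rate here. Other steps used Python 3.11.15, pandas 2.3.3, numpy 2.4.6 and matplotlib 3.10.9. Named are all 9 members, CCNB1, the 3 nearest profiles of each member and the extremes of each gene list in each response. The members and lists were chosen with earlier results of these data known. Alternatives were an adjusted p of 0.01, no filter, a filter of 10 RPM, quantile normalization, median-ratio scaling, log2(RPM + 0.1), limma-voom on the recovered reads, replicate blocks, only the groups compared, and leaving out each library, where the lone library of its group is assumed to vary like the other groups.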

Additional observations from a re-analysis of the deposited data

Results flagged for a closer look

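The response to selumetinib differed between the CCNB1-positive and CCNB1-negative fractions, by the interaction term in limma, for 7 checkpoint mRNAs. That term was called positive for 4.99% and negative for 0.345% of all genes tested. The difference, as the response in CCNB1-positive minus that in CCNB1-negative cells on the log2 scale, was 3.41 for CDC20, 3.16 for BUB1, 2.94 for MAD2L1, 2.78 for TTK, 2.49 for BUB1B, 1.70 for TRIP13 and 1.04 for BUB3. The call for BUB3 was lost without the filter on low values (adjusted p = 0.062) and in some of the fits that left out a library. Groups of 2 libraries were too small to look for libraries that stand apart from their group.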

How the results depend on the processing

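In the CCNB1-negative response 10530 of the 14219 genes tested were called at an adjusted p under 0.05 and 9152 at 0.01. The number of the 9 genes called was 8 in the CCNB1-negative response under every alternative. It ranged over the alternatives without a block from 6 to 8 in the CCNB1-positive response, from 4 to 6 between untreated fractions, from 7 to 8 between treated fractions and from 6 to 7 for the difference between responses. Of 738 repeats of the 45 single values, 700 kept direction and side of the threshold, 23 lost and 11 gained a call, and 4 changed sign, all of values that were not called. The sign changes were MAD1L1 in the CCNB1-positive response, at -0.14 with median-ratio scaling and from -0.083 to 0.150 over the fits that left out 1 library (negative without untreated CCNB1-positive replicate 2), and MAD2L1BP between untreated fractions, from -0.039 to 0.188 over those fits (negative without untreated CCNB1-negative replicate 1, and without untreated CCNB1-positive replicate 2). The cause was not tested. In many of the 738 repeats the direction could not change. Other filters, blocks, fitting only the groups compared or leaving out a library outside the comparison keep the log2 difference by construction. Such repeats could change only the side of the threshold. Over all genes the counts moved more. Without a block they ranged from 217 to 455 between untreated fractions (408 with all libraries at an adjusted p of 0.05), from 1156 to 4279 between treated fractions (3077) and from 426 to 1806 for the difference between responses (758). The lowest were at an adjusted p of 0.01 (217 and 426) and without selumetinib CCNB1-negative replicate 2 (1156), and 4279 and 1806 came without selumetinib CCNB1-negative replicate 1.

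Same-numbered libraries share only a number, since the labels do not say what it marks. The correlation of their deviations from the group means was 0.35 between the untreated and 0.43 between the treated fractions, and between -0.09 and 0.08 for pairs across treatments. With the replicate block 8, 7, 6, 8 and 7 of the 9 genes were called in the 5 comparisons, and 10890, 9764, 500, 3741 and 883 of all genes. With the block for pairs of fractions within a treatment, the 3 comparisons it bears on had 7, 9 and 7 of the 9 genes called, and 1923, 6671 and 3850 of all genes. That fit made 3 calls that the fit without a block did not, MAD2L1 (adjusted p = 0.00933) and TRIP13 (0.00129) between untreated fractions and MAD2L1BP (0.00661) between treated ones. TRIP13 was also called with the replicate block (0.0447).

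Depth limits the low end: in selumetinib CCNB1-negative libraries TTK, BUB1 and MAD2L1 rested on 34 to 69 reads.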

Other observations

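Set against CCNB1 mRNA within each library, a comparison chosen after the data were seen, the checkpoint mRNAs of CCNB1-positive cells did not move together. The log2 ratio to CCNB1 reads was lower after selumetinib for TRIP13 (-2.44 and -2.52 untreated, -2.93 and -2.83 treated) and for MAD2L1 (-2.16 and -2.15 untreated, -2.48 and -2.43 treated). It was higher after selumetinib for the other 7, from a difference of the means of 0.15 for BUB3 to 1.31 for MAD1L1. CCNB1 itself changed by -1.27 in CCNB1-positive cells, so every gene that fell by less is higher in this ratio. The median response of all genes tested was 0.17 in these cells, so such a rise is not particular to the checkpoint mRNAs. For CDC20 the ratios were -0.47 and -0.59 untreated and 0.02 and 0.15 treated. For BUB1B they were -1.43 and -1.74 untreated and -0.99 and -0.69 treated. No test of these ratios was made, and they were not computed for genes outside the 9.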
